A study of Mus musculus with 4 samples.

Results

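The Rab GTPase genes of CD11b+ mouse splenocytes are described here. They were taken by name, with earlier results of these data known. The rule took every gene symbol of the array platform that starts with Rab and a digit and ends in digits with at most 2 letters. Of 63 such symbols, the Rab-interacting proteins Rab3ip and Rab5if and the long non-coding RNAs Rab10os and Rab26os were left out. The remaining 59 genes, of 18193 named genes in all, were each read by their brightest probe set, and 38 of them had further probe sets. RNA of CD11b+ spleen cells was measured on 4 Affymetrix MOE430 2.0 arrays. The groups were mice exposed to repeated social threat (2 pools) and control mice in a low-threat environment (2 pools), with the RNA of 5 mice in each pool. Strain, sex and age of the mice are not given in the sources used here. Levels are log2 expression values, a log2 fold change is social threat minus control, and a gene was called at a limma adjusted p under 0.05.

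Rab proteins are small GTPases that mark membranes. In the GTP-bound form each recruits effectors to its own compartment, such as tethers, motors and fusion factors, and hydrolysis of GTP with extraction by GDI ends the cycle. Prenyl groups attached to cysteines at the C terminus hold the protein in the membrane. In neutrophils, mast cells and cytotoxic lymphocytes, Rab27a and its relatives bring secretory granules to the plasma membrane, while other members direct phagosomes, endosomes and Golgi traffic.

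Of the 59 Rab genes, 14 rose and 6 fell after social threat. The rises were led by Rab3d, a GTPase of secretory granules, with a log2 fold change of 1.24 (2.36-fold), and by Rab23, known as an inhibitor of Hedgehog signalling, with 1.09 (2.13-fold). The largest fall was that of the Golgi GTPase Rab30, by 1.08 on the log2 scale (fold 0.474). Calls in either direction covered 33.9% of the family, against 21.1% of all 18193 genes. Rises made up 23.7% of the family, against 9.4% of all genes, and falls 10.2%, against 11.7%. Bright genes were called more often, and 50 of the 59 Rab genes lay above the median of all values, 4.42. Among genes above that level, 40.0% of the Rab genes and 33.3% of all genes were called. Of these, rises covered 28.0% of the Rab genes and 14.6% of all genes, and falls 12.0% and 18.6%. The differences between these shares were not tested. The 9 Rab genes at or below that level gave 0 calls. The median log2 fold change was 0.02 over the family and -0.02 over all genes. At a size of at least 1.5-fold, 7 Rab genes rose and 1 fell (11.9% and 1.69% of the family, against 3.9% and 3.62% of all genes). The pools of the groups did not overlap for 40 of the 59 genes (67.8%), against 58.2% of all genes. Above the median level those shares were 68.0% and 71.1%. The number of calls was 8 rises and 3 falls without social threat pool 1, and 6 rises and 2 falls without social threat pool 2. Without limma's variance trend, the calls of Rab1b, Rab2a, Rab11a, Rab20, Rab21, Rab31, Rab32 and Rab38 were lost (adjusted p from 0.0617 to 0.353).

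**Figure D1:**
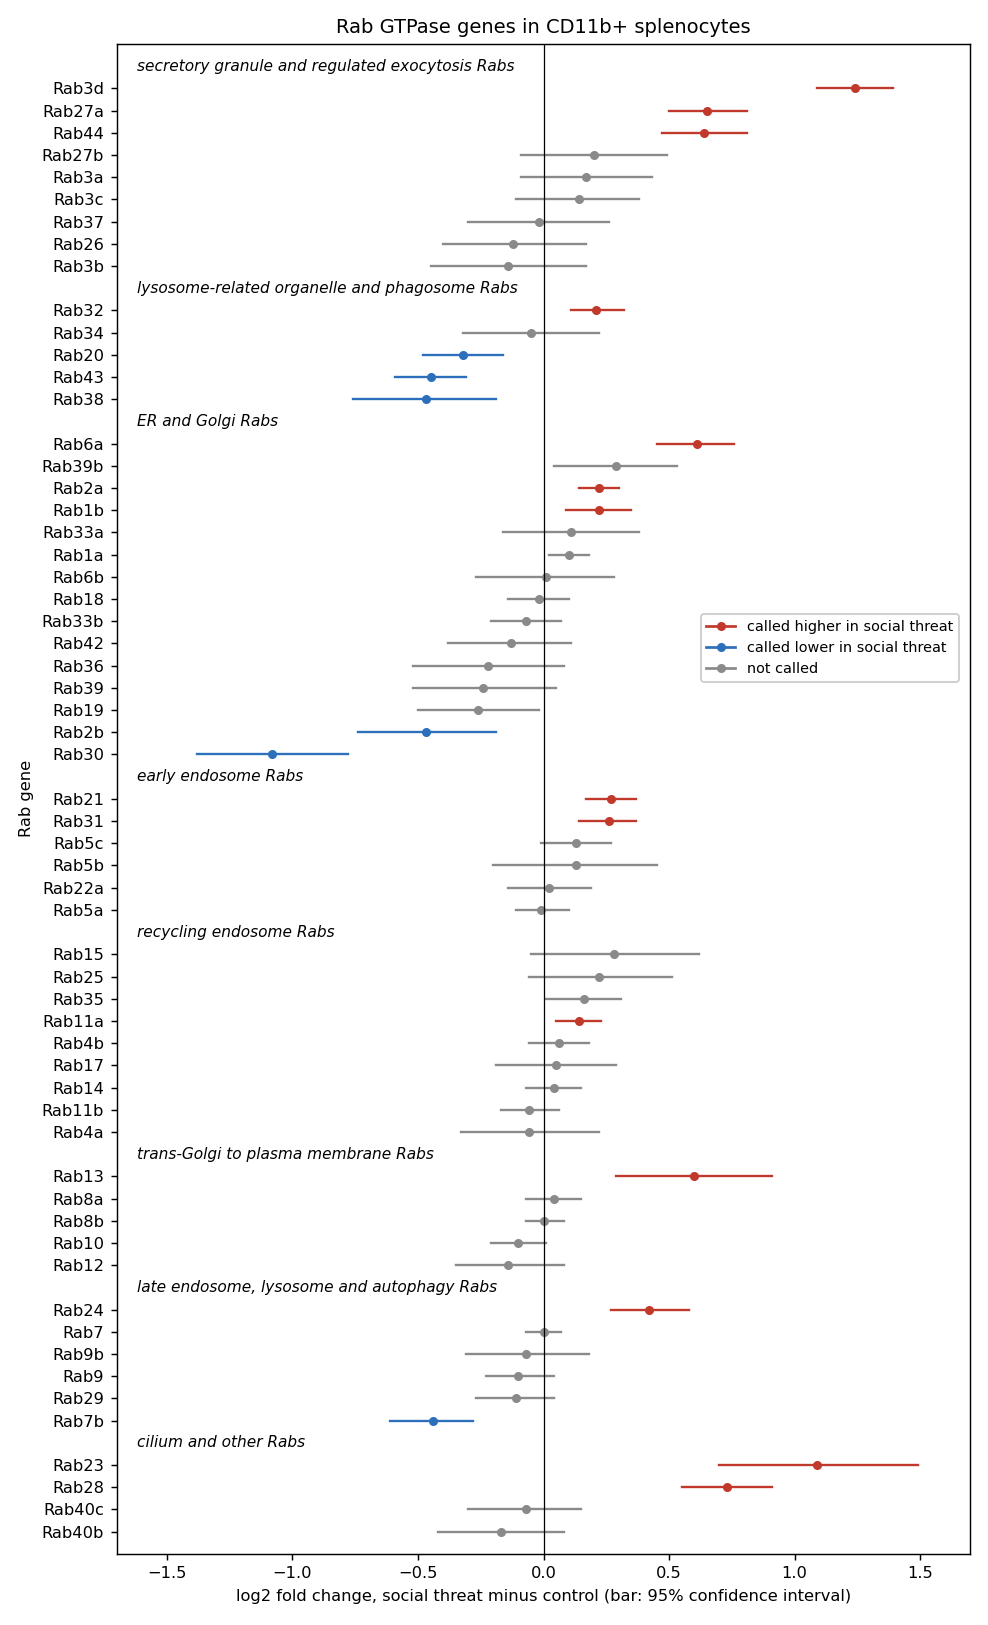
Log2 fold change (social threat minus control) of each of the 59 Rab genes by its brightest probe set, grouped by role, with 95% confidence intervals from limma (2 pools per group). The 14 genes called higher are red, the 6 called lower blue and the 39 not called grey. Rab3d lies farthest right at 1.24 and Rab30 farthest left at -1.08.

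Markers of the cells in these pools moved as well. Itgam, which encodes CD11b, stood at 11.64 and 11.59 in the social threat pools, against 10.47 and 11.01 in the control pools. Of 11 measured genes of neutrophil precursor granules, 11 rose, with mean levels of 12.14 and 12.10 under social threat and of 9.71 and 9.62 in controls. Cell cycle genes rose for 10 of 11, with mean levels of 8.74 and 8.68 under social threat and of 6.84 and 6.71 in controls. Conventional dendritic cell markers fell for 9 of 9 (mean levels 7.54 and 7.48 under social threat, 8.63 and 8.62 in controls), and B cell markers for 8 of 9 (7.58 and 7.55 under social threat, 8.52 and 8.51 in controls). T cell markers fell for 9 of 9, NK cell markers for 6 of 9 and red pulp macrophage markers for 8 of 11, where 1 rose (median changes -0.96, -0.50 and -0.42). Of 8 mature neutrophil genes 6 rose and 2 fell, and erythroid and platelet genes rose for 5 of 8 and 5 of 9, with 0 falls in each. In such pooled bulk RNA, fewer cells of a type and less RNA per cell cannot be told apart, and the part of these shifts in the Rab results was not tested.

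Among the 9 Rabs of secretory granules and regulated exocytosis, 3 rose and 0 fell. Rises thus covered 33.3% of this group, against 9.4% of all genes. Of the 9, 7 lay above the median level, where 14.6% of all genes rose. The counts of each group and list below stand beside the same shares of rises. For falls the shares were 11.7% of all genes and 18.6% of those above the median level, and for either direction 21.1% and 33.3%. Differences from these shares were not tested. Rab3d, known from exocrine cells and mast cells, stood at 9.40 and 9.37 in the social threat pools, against 8.10 and 8.19 in the control pools. Its log2 fold change was 1.24 (SE 0.07, limma adjusted p = 2.74e-06). Both social threat pools lay more than a log2 unit above both control pools, while pools of a group differed little. Of its 4 probe sets 3 rose, by 1.10 to 1.43, and the dimmest one had a log2 difference of 0.37 without a call. Rab27a, whose loss in ashen mice impairs the release of melanosomes and lytic granules, stood at 9.49 and 9.64 under social threat, against 8.87 and 8.95 in controls. It rose by 0.65 (SE 0.07, adjusted p = 0.00019), and 3 of its 4 probe sets were called, at 0.56 to 0.65. Rab44, an unusually large Rab with EF-hand and coiled-coil regions that acts in mast cell degranulation in mice, stood at 8.68 and 8.64 under social threat, against 7.97 and 8.08 in controls. It rose by 0.64 (SE 0.07, adjusted p = 0.00032) by its only probe set. These 3 calls held without any single pool.

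The promoter regions of Rab3d and of Rab27a, which has 2 annotated starts, are shown because both genes rose and serve granule release. The regions of Rab21 and Rab20 follow because both hold the E-box letters CACGTG close before the start although Rab21 rose and Rab20 fell. Each is the stretch of 250 bases before the start site in the RefSeq promoter table (GRCm38.p6), written 5′ to 3′ on the gene's strand, with matches to any of the searched motifs in capitals. Rab3d lies at chr9:21918184-21918433 (minus strand), Rab27a at chr9:73044560-73044809 and chr9:73063898-73064147 (plus strand), Rab21 at chr10:115315592-115315841 and Rab20 at chr8:11478641-11478890 (both minus strand).
Rab3d: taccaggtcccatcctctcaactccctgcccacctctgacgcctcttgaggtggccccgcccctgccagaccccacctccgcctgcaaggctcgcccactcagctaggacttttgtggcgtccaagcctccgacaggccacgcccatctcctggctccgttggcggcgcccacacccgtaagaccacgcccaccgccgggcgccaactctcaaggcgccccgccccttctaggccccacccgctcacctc
Rab27a, upstream start: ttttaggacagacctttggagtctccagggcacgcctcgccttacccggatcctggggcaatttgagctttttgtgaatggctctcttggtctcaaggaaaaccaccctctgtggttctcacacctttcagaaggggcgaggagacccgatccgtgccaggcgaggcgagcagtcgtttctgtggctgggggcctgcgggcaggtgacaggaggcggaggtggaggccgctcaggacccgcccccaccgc
Rab27a, downstream start: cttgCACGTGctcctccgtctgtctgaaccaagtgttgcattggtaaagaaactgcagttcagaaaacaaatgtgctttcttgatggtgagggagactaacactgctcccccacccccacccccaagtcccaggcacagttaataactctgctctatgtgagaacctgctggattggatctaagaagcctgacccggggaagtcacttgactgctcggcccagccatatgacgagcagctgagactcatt
Rab21: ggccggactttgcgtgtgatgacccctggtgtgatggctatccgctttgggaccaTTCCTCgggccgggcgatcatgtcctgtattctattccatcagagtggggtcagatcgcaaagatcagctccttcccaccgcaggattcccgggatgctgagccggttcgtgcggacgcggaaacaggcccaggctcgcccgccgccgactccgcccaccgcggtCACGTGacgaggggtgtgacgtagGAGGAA
Rab20: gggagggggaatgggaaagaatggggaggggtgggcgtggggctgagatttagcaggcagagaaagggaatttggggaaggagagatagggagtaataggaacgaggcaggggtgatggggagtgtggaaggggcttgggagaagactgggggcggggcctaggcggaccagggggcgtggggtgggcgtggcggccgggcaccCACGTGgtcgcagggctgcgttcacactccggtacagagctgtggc

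Windows of 300 bases, 250 before and 50 after a start, were matched by symbol and used for 48 of the 59 Rab genes. The 15 windows of genes that rose came from 12 genes, without Rab2a and Rab44. The 6 windows of genes that fell came from 3 genes, without Rab7b, Rab30 and Rab38. Most of those 6 belong to Rab43, which has several starts with partly overlapping windows. Windows on chromosome 18, where Rab18 and Rab27b lie, were not used for Rab genes but stayed among all windows. Both strands were searched for GAGGAA (the core of PU.1-type ETS sites), TGANTCA (AP-1), TGACGTCA (the cAMP response element), CACGTG (the E-box of TFEB and MYC), TTGCNNAA (C/EBP) and TTTGGCGC (E2F). None of these motifs holds another of them whole. The E-box occurred in 4 of 15 windows of genes that rose (Rab21, Rab23, Rab24 and Rab27a), in 1 of 6 windows of genes that fell (Rab20) and in 1 of 39 windows of genes not called (Rab5a). Of all 32851 windows in the table, 7.15% held it. Its first base lies 246 bases before the downstream start in Rab27a. In Rab23 it lies 218 bases before the start, in Rab21 30 and in Rab20 46. In Rab24, which rose, it lies at position 3 from the start, past the 250 bases before it. GAGGAA occurred in 4 of 15, 3 of 6 and 4 of 39 windows of genes that rose, fell and were not called, against 28.3% of all windows. Counted by gene, GAGGAA occurred in 4 of 12, 3 of 3 and 4 of 33, and the E-box in 4 of 12, 1 of 3 and 1 of 33. The C/EBP letters occurred in 1 of 15 and 1 of 6 windows of genes that rose and fell, against 10.8% of all, while AP-1 (7.81% of all), the cAMP response element (1.79%) and E2F (0.514%) occurred in 0 windows of called Rab genes. These are letter matches, without evidence of binding.

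The other 6 exocytic Rabs were not called. Rab27b, the close relative of Rab27a, stood at 3.91 and 4.04 under social threat and at 3.65 and 3.89 in controls, below the median of all values, where background cannot be separated from expression. The brain and endocrine Rabs Rab3a, Rab3b and Rab3c had log2 differences of 0.17 (95% interval -0.09 to 0.43), -0.14 (-0.45 to 0.17) and 0.14 (-0.11 to 0.38). Like Rab27b, Rab3c lay below the median of all values in every pool, so its interval does not bound a change in expression. Rab37, which acts in secretion by mast cells, stood at 5.82 and 6.11 under social threat, against 6.0 and 5.97 in controls. Its pools overlapped, and the interval of its change ran from -0.30 to 0.26. Rab26, a granule Rab of secretory cells, had levels of 4.50 and 4.69 under social threat and of 4.67 and 4.75 in controls, with an interval from -0.40 to 0.17. Rab26 and Rab3b lay near the median of all values, and differences of such dim probe sets are compressed. Within the Rab3 and Rab27 branches the called genes were Rab3d and Rab27a, and differences between relatives were not tested.

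**Figure D2:**
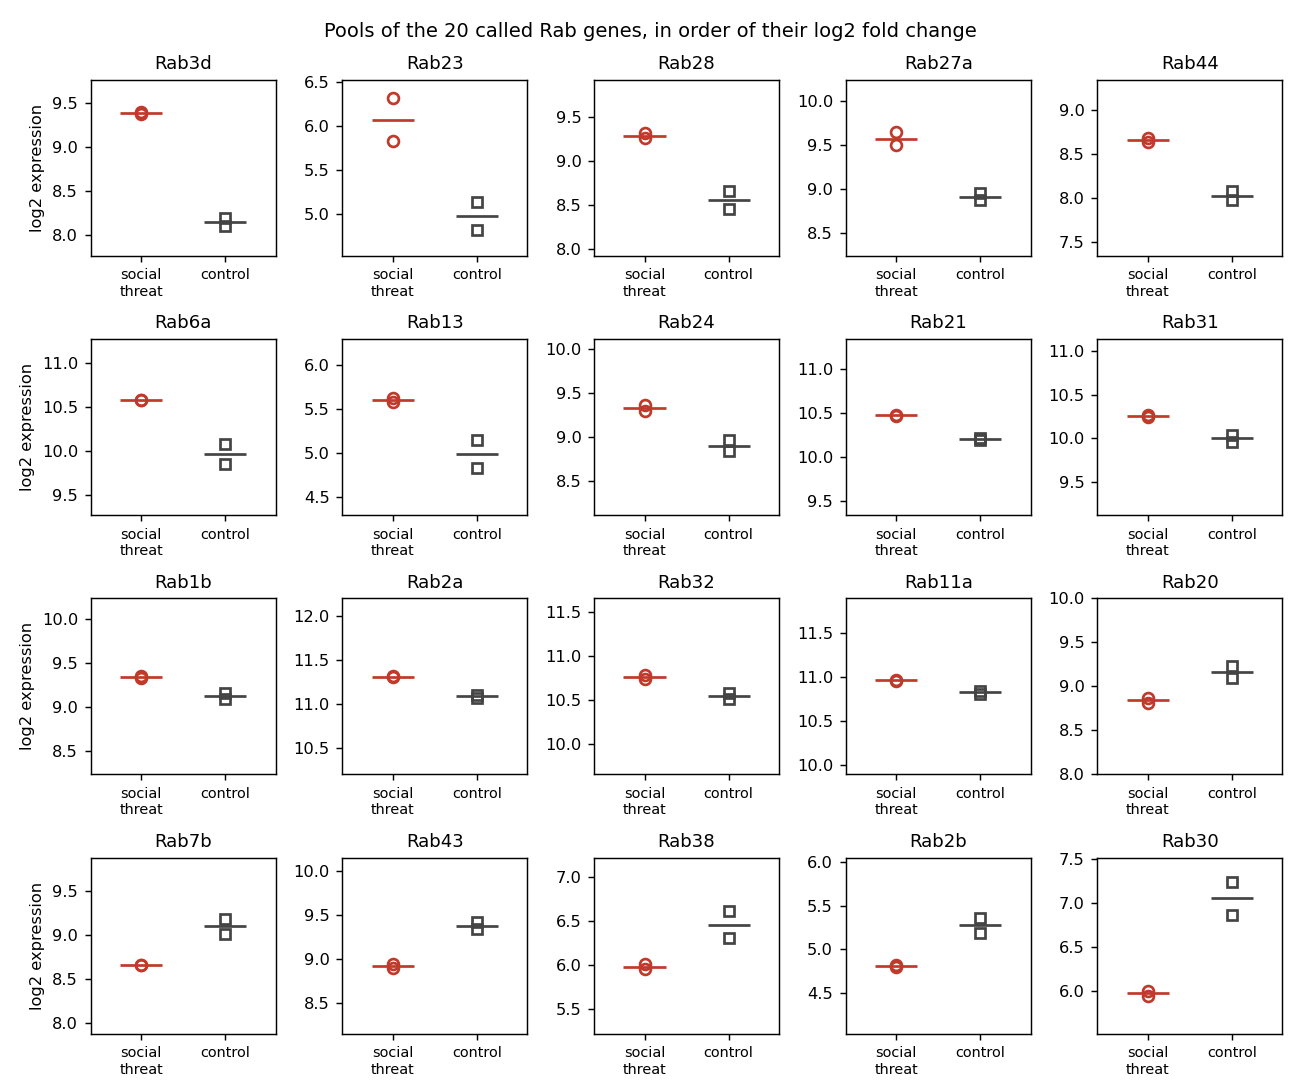
Log2 expression in each pool of the 20 called Rab genes, ordered by log2 fold change, with social threat pools (red circles) left of control pools (grey squares) and a line at each group's mean. Every panel spans the same 2 log2 units. Rab3d, Rab23 and Rab30 show the widest gaps between groups, and in Rab23 the social threat pools themselves lie 6.31 and 5.83.

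Rabs of lysosome-related organelles and phagosomes fell for 3 of 5 genes and rose for 1. Rab43, a Golgi and phagosome Rab used by mouse dendritic cells for cross-presentation, stood at 8.95 and 8.90 under social threat, against 9.34 and 9.42 in controls, and fell by 0.45 (SE 0.06, adjusted p = 0.000867). Its other 2 probe sets had log2 differences of -0.70 (called) and -0.35 (not called), so all 3 lay below zero. Rab38, which with Rab32 delivers enzymes to melanosomes and related organelles, stood at 6.01 and 5.95 under social threat, against 6.61 and 6.30 in controls. Rab38 fell by 0.47 (SE 0.12, adjusted p = 0.0301), but its second probe set had a log2 difference of 0.22 and was not called, and the mean of both gave -0.13 (adjusted p = 0.318). Rab32 moved the opposite way. It stood at 10.74 and 10.78 under social threat, against 10.58 and 10.51 in controls, and rose by 0.21 (SE 0.04, adjusted p = 0.01). Rab20, a phagosome Rab of macrophages, stood at 8.87 and 8.81 under social threat and at 9.23 and 9.09 in controls, and fell by 0.32 (SE 0.07, adjusted p = 0.0127). Rab34, which acts in phagosome maturation and cilium formation, was not called (-0.05, interval -0.32 to 0.22), at levels near the median of all values. Without social threat pool 1 or pool 2, adjusted p was 0.0908 and 0.172 for Rab32, 0.102 and 0.182 for Rab20 and 0.171 and 0.231 for Rab38, which also missed the threshold without control pool 1 (0.0933). Markers of dendritic cells, B cells, T cells, NK cells and red pulp macrophages had median changes of -1.02, -1.11, -0.96, -0.50 and -0.42 in the same pools. The part of any of them in the change of Rab43 was not tested.

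Of 15 Rabs of the ER and Golgi, 3 rose and 2 fell. Rab6a, which governs traffic at the Golgi and back to the ER, stood at 10.57 in both social threat pools, against 10.08 and 9.85 in controls. It rose by 0.61 (SE 0.07, adjusted p = 0.000307), and all 3 of its probe sets rose, by 0.44 to 0.61. Rab30, a Golgi Rab, stood at 5.94 and 6.0 under social threat, against 7.24 and 6.86 in controls, and fell by 1.08 (SE 0.13, adjusted p = 0.000465). A second Rab30 probe set was dim, at 2.81 to 3.0 in all 4 pools, and had a log2 difference of -0.07, so that the mean of both fell by 0.57. The calls of Rab6a and Rab30 held without any single pool, with changes of 0.49 to 0.72 and of -1.27 to -0.89.

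The paralogs Rab2a and Rab2b, which act between ER and Golgi, were called in opposite directions. Rab2a stood at 11.30 and 11.32 under social threat, against 11.07 and 11.10 in controls, and rose by 0.22 (SE 0.04, adjusted p = 0.00234), with 3 of 7 probe sets called higher and a mean over all 7 of 0.18 (adjusted p = 0.0778). Rab2b stood at 4.82 and 4.80 under social threat, against 5.36 and 5.19 in controls, and fell by 0.47 (SE 0.12, adjusted p = 0.031). These Rab2b levels are near the median of all values, 2 of 5 probe sets were called lower, and the most variable one had a log2 difference of 0.13 (not called). The mean of all 5 gave -0.18 (adjusted p = 0.393). Rab1b, which acts in export from the ER, rose by 0.22 (SE 0.06, adjusted p = 0.0335), at 9.33 and 9.35 under social threat against 9.09 and 9.15 in controls. Rab1a, its close relative, had a log2 difference of 0.10 (interval 0.02 to 0.18) and was not called (adjusted p = 0.104). Leaving out social threat pool 2 gave adjusted p = 0.0664 for Rab2a, 0.208 for Rab2b and 0.304 for Rab1b, and leaving out social threat pool 1 gave 0.189 for Rab2b and 0.246 for Rab1b. Without control pool 1 the adjusted p was 0.0983 for Rab2b and 0.0534 for Rab1b. The 10 uncalled members had log2 differences of -0.26 to 0.29. Rab18, a Rab of the ER and lipid droplets, stood at 9.98 and 10.01 under social threat and at 9.97 and 10.06 in controls, so its pools overlapped. Rab33b, which acts in Golgi traffic and autophagy, had a log2 difference of -0.07, Rab36 of -0.22 and Rab19 of -0.26 (interval -0.50 to -0.02, adjusted p = 0.147). Rab33a, Rab39 (Rab39a), Rab39b and Rab42 lay below the median of all values in every pool. Rab6b, the neuronal relative of Rab6a, had a log2 difference of 0.01 by its brightest probe set, whose levels were 4.74 to 4.90, and a dimmer one fell by 0.49.

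Early endosome Rabs rose for 2 of 6 genes and fell for 0. Rab21, which directs integrins through endosomes, stood at 10.47 and 10.48 under social threat, against 10.20 and 10.22 in controls, and rose by 0.27 (SE 0.04, adjusted p = 0.00258). Rab31, a Rab of the trans-Golgi and endosomes, stood at 10.27 and 10.25 under social threat, against 10.04 and 9.96 in controls. It rose by 0.26 (SE 0.05, adjusted p = 0.00668), and its second probe set rose by 0.43. The spread between pools was at most 0.06 (SD) for these 2 genes. Without social threat pool 1 and pool 2, adjusted p was 0.0604 and 0.07 for Rab21 and 0.121 and 0.0961 for Rab31. The Rab5 isoforms, which define the early endosome, were not called. Rab5a stood at 10.46 and 10.49 under social threat and at 10.52 and 10.45 in controls, with an interval of -0.11 to 0.10. Rab5b and Rab5c both had a log2 difference of 0.13, with intervals of -0.20 to 0.45 and -0.01 to 0.27. Rab22a, another early endosome Rab, had a log2 difference of 0.02 (-0.14 to 0.19).

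Recycling endosome Rabs were called for 1 of 9 genes. Rab11a, the main Rab of the recycling compartment, stood at 10.96 and 10.97 under social threat, against 10.85 and 10.81 in controls, and rose by 0.14 (SE 0.04, adjusted p = 0.0454). This was the smallest change called in the family, its second probe set had a log2 difference of -0.04, and the mean of both gave 0.05 (adjusted p = 0.552). The call was lost without social threat pool 1 (adjusted p = 0.278), social threat pool 2 (0.329) and control pool 2 (0.0678). Rab11b had a log2 difference of -0.06 (interval -0.17 to 0.06). Rab14, which links endosomes and phagosomes, had a log2 difference of 0.04 by its brightest probe set, while 1 of its 7 probe sets rose by 0.30. Rab15 had a log2 difference of 0.28 with the widest interval among the uncalled genes, -0.05 to 0.62, at 5.61 and 5.60 under social threat against 5.12 and 5.53 in controls. Rab35, a Rab of fast recycling and actin control, had a log2 difference of 0.16 (0.01 to 0.31, adjusted p = 0.169). Rab4a and Rab4b, also of fast recycling, had log2 differences of -0.06 and 0.06, and the epithelial Rabs Rab17 and Rab25 of 0.05 and 0.22. Rab17 lay below the median of all values in every pool, and Rab4a and Rab25 lay near it.

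Among 5 Rabs of traffic to the plasma membrane, 1 rose. Rab13, a Rab of cell junctions, stood at 5.57 and 5.62 under social threat, against 5.14 and 4.83 in controls. It rose by 0.60 (SE 0.14, adjusted p = 0.0147) by its only probe set, whose control levels are near the median of all values. Without social threat pool 1 and pool 2 its adjusted p was 0.106 and 0.142. Rab8a, Rab8b, Rab10 and Rab12, which serve exocytic and endosomal routes, had log2 differences of 0.04, 0.00, -0.10 and -0.14. The interval of Rab8b was one of the narrowest, from -0.07 to 0.08.

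Late endosome, lysosome and autophagy Rabs rose for 1 and fell for 1 of 6 genes. Rab24, an atypical Rab with low GTPase activity that is linked to autophagy, stood at 9.29 and 9.36 under social threat, against 8.96 and 8.84 in controls, and rose by 0.42 (SE 0.07, adjusted p = 0.002). Its second probe set rose by 0.33. Rab7b, which in macrophages limits Toll-like receptor signalling, stood at 8.66 in both social threat pools, against 9.19 and 9.02 in controls. It fell by 0.44 (SE 0.07, adjusted p = 0.00267), and its other 2 probe sets had log2 differences of -0.41 (called) and -0.31 (not called). Without social threat pool 2, adjusted p was 0.0636 for Rab24 and 0.0532 for Rab7b. Rab7, the Rab7a of late endosomes and lysosomes, stood at 11.69 and 11.65 under social threat and at 11.66 and 11.68 in controls. Its interval ran from -0.07 to 0.07. Rab9 (Rab9a), which returns mannose 6-phosphate receptors to the Golgi, had a log2 difference of -0.10 (-0.23 to 0.04), and Rab29, a partner of the kinase LRRK2, of -0.11 (-0.27 to 0.04). Rab9b stood at 3.02 and 3.27 under social threat and at 3.18 and 3.24 in controls, below the median of all values.

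Of the remaining 4 genes, 2 rose. Rab23 stood at 6.31 and 5.83 under social threat, against 4.82 and 5.13 in controls, and rose by 1.09 (SE 0.17, adjusted p = 0.00216). Its pools had an SD of 0.34 under social threat and of 0.22 in controls, 2 of its 3 probe sets were called, and the mean of the 3 rose by 0.71. The control levels of its brightest probe set are near the median of all values. Its other probe sets lay below that median, where background cannot be separated from expression. Rab28, a Rab of cilia and photoreceptors, stood at 9.31 and 9.26 under social threat, against 8.66 and 8.45 in controls. It rose by 0.73 (SE 0.08, adjusted p = 0.00022), and its second probe set rose by 0.69. Both calls held without any single pool, at 0.85 to 1.33 for Rab23 and 0.63 to 0.84 for Rab28. Rab40b and Rab40c, Rabs with a SOCS box that recruits ubiquitin ligases, were not called by their brightest probe sets, and a dimmer probe set of Rab40c rose by 0.44. Rab40b lay below the median of all values in every pool. Genes of the cell cycle, neutrophil precursor granules, erythroid cells, platelets and mature neutrophils had median changes of 2.15, 1.94, 1.04, 0.39 and 0.35 in the same pools. The part of any of them in these rises was not tested.

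Probe sets of a gene mostly ran the same way where calls were made. The 59 genes had 132 probe sets, of which 28 were called higher and 10 lower, 38 in all, or 28.8% of them. Of all 45037 probe sets on the array, 15.8% were called, 7.09% higher and 8.67% lower. Calls in both directions occurred in 0 Rab genes. Of the 15 called genes with several probe sets, 11 had at least 2 called the same way, and Rab38, Rab30, Rab21 and Rab11a had 1. Rab6b, Rab14 and Rab40c were called only by a probe set other than their brightest. For 38 of the 39 uncalled members, the 95% interval of the change stayed within 1.5-fold either way, and Rab15 was the exception. Of the 39, 9 lay at or below the median of all values, where a narrow interval does not bound a change in expression. Others, such as Rab3b, Rab26 and Rab34, lay just above it, and differences of dim probe sets are compressed.

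**Figure D3:**
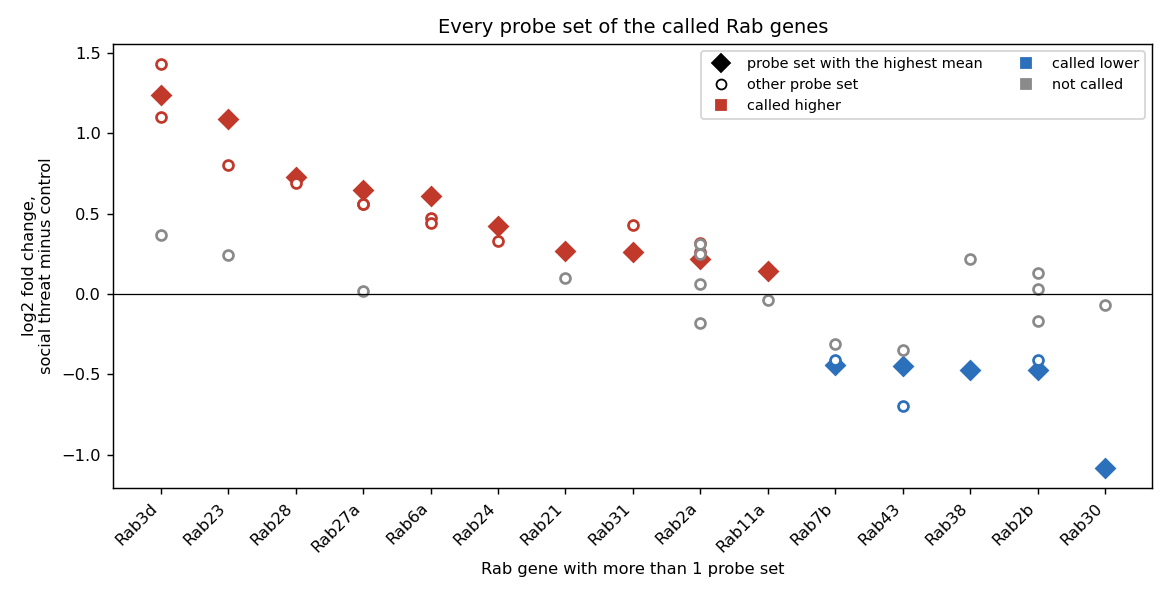
Log2 fold change (social threat minus control) of every probe set of the 15 called Rab genes that have more than 1, with the brightest as a filled diamond and others as open circles. Red, blue and grey mark probe sets called higher, called lower and not called. The called probe sets of each gene lie on 1 side of zero, while Rab2a, Rab2b, Rab11a and Rab38 also have uncalled ones on the other side.

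The genes that regulate Rabs or act beside them gave more falls than rises. Over 132 genes of 6 lists, 12 rose (9.09%) and 24 fell (18.2%), with a median change of -0.03. Of all genes 9.4% rose and 11.7% fell. Of the 132 genes, 118 lay above the median of all values, where 14.6% of all genes rose and 18.6% fell. How the lists differ from either background was not tested. The counts were 4 rises and 13 falls without social threat pool 1, and 4 rises and 8 falls without social threat pool 2. Of 33 genes listed as Rab inactivators (GAPs, a class that speeds GTP hydrolysis), 4 rose and 8 fell. Of 32 listed as activators (GEFs, a class that loads GTP), 2 rose and 3 fell. The activity of each listed protein was not checked. Tbc1d2, a GAP for Rab7, stood at 7.35 and 7.45 under social threat, against 6.25 and 6.03 in controls, and rose by 1.26 (SE 0.11, adjusted p = 5.04e-05). Tbc1d4, the insulin-responsive GAP AS160, stood at 9.13 and 9.14 under social threat, against 10.27 and 10.36 in controls, and fell by 1.18 (SE 0.06, adjusted p = 1.16e-06). That was 1 of its 2 probe sets, the other was not called, and the mean of both fell by 0.67. Tbc1d24 rose by 0.85 (SE 0.20), with adjusted p = 0.179 without social threat pool 1, 0.0671 without pool 2 and 0.0813 without the variance trend. Its change was 0.49 without control pool 2. Tbc1d9, of the same list, fell by 0.67 (SE 0.09). Among activators, Rabgef1 (Rabex-5, the GEF of Rab5 and Rab21) fell by 0.44 (SE 0.04), at 10.39 and 10.44 under social threat against 10.89 and 10.83 in controls, in all 3 of its probe sets. Dennd6b rose by 0.64 (SE 0.12), while Rab3ip (Rabin3, a GEF of Rab8) fell by 0.61 (SE 0.13) and Dennd6a (a GEF of Rab14) by 0.44 (SE 0.10). Those last 3 lost the call without social threat pool 2 (adjusted p = 0.0637, 0.159 and 0.142), and Dennd6b and Dennd6a also without pool 1 (0.0839 and 0.145). Only 1 of 4 probe sets of Dennd6b and 1 of 2 of Dennd6a were called, and the mean over all of them gave 0.14 (adjusted p = 0.276) and -0.23 (0.13). For Rab3ip, 1 of 2 probe sets was called.

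The partners of Rab27a in granule fusion were called in part. Of 12 Rab27 and Rab3 effectors, only 4 lay above the median of all values, 1 rose and 1 fell. Unc13d (Munc13-4), which primes lytic and neutrophil granules, stood at 8.29 and 8.18 under social threat, against 8.02 and 7.78 in controls, and rose by 0.33 (SE 0.10, adjusted p = 0.0461). That call was lost without social threat pool 1 (0.36), social threat pool 2 (0.177) and control pool 2 (0.104), where its change was 0.21, and without the variance trend (0.129). Rims3, a RIM protein known from neurons, fell by 0.82 (SE 0.12), to 4.35 and 4.48 under social threat against 5.22 and 5.24 in controls, by 1 of its 2 probe sets, and the mean of both fell by 0.46. Rph3a (rabphilin) and Rph3al (Noc2) had log2 differences of 0.42 and -0.19 and were not called. Of 21 SNAREs and partners, 2 rose and 5 fell. Stx11, a syntaxin of cytotoxic cells and phagocytes, stood at 10.04 and 10.02 under social threat, against 9.43 and 9.51 in controls, and rose by 0.56 (SE 0.05, adjusted p = 0.000105). Stxbp2 (Munc18-2), which binds it, stood at 9.85 in both social threat pools, against 9.41 and 9.45 in controls, and rose by 0.42 (SE 0.05, adjusted p = 0.00054), in all 3 of its probe sets. Stx4a, a plasma membrane syntaxin, and Napa, which helps take SNARE complexes apart, each fell by 0.39 (SE 0.08 and 0.05). The call of Stx4a was lost without social threat pool 1 (0.0979) and pool 2 (0.0982) and without the variance trend (0.0591).

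Of 27 other Rab effectors, 2 rose and 5 fell. Gcc2, a golgin that captures vesicles at the trans-Golgi, rose by 0.62 (SE 0.09), at 8.13 and 8.15 under social threat against 7.61 and 7.43 in controls. Rbsn (rabenosyn-5), an effector of Rab5 and Rab4, rose by 0.52 (SE 0.11), with adjusted p = 0.132 and 0.0972 without social threat pool 1 and pool 2. Rilpl1 and Rilpl2, relatives of the Rab7 effector Rilp that bind Rab8 and Rab10, fell by 0.70 (SE 0.12) and 0.60 (SE 0.03). Rilpl2 stood at 11.26 and 11.23 under social threat, against 11.87 and 11.83 in controls, and Rilpl1 had adjusted p = 0.0577 without social threat pool 2. Of the probe sets of Rbsn 1 of 3 was called and of Rilpl1 1 of 4, and the mean over all of them gave 0.16 (adjusted p = 0.183) and -0.16 (0.225). In the prenylation and recycling list of 7 genes, Rabif (a chaperone of nucleotide-free Rabs) rose by 0.43 (SE 0.07) by 1 of its 4 probe sets, and the mean of the 4 gave 0.17 (adjusted p = 0.18). Rabggtb, a subunit of the prenyl transferase, fell by 0.28 (SE 0.08) and Gdi2 by 0.10 (SE 0.03), whereas Chm, an escort protein for prenylation, had a log2 difference of 0.18 without a call. Without social threat pool 1 and pool 2, adjusted p was 0.08 and 0.0503 for Rabif, 0.107 and 0.446 for Rabggtb and 0.225 and 0.251 for Gdi2. Without control pool 1 it was 0.0882 for Rabggtb and 0.06 for Gdi2, and without the variance trend 0.132 and 0.486. Re-centring the arrays on their medians gave 0.0501 for Rabggtb, and the mean of the 6 probe sets of Gdi2 gave 0.118.

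**Figure D4:**
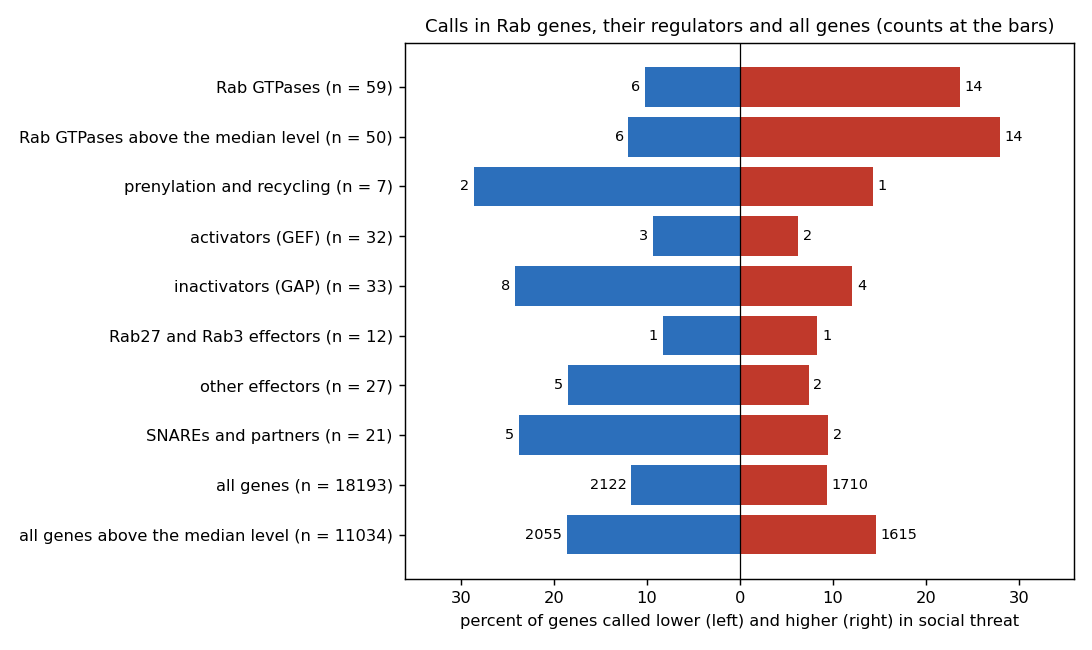
Percent of genes called lower (blue, left) and higher (red, right) in social threat, with counts at the bars and the number of genes measured beside each name. Of all Rab genes 23.7% were called higher and 10.2% lower, of Rab genes above the median level 28.0% and 12.0%, and of all genes 9.4% and 11.7%.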

How the data were processed

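Each array's deposited table holds log2 values, 1 per probe set. RMA, an array method that removes background, equalises the arrays' distributions and combines the probes of a set, is listed per the submitters' processing notes without a version. It gives no detection calls and compresses differences of dim probe sets. Array medians lay between 4.41 and 4.43, and the number of arrays limits the precision. Groups and pool numbers came from sample titles, and the sources used here give neither a batch nor a handling order, which was not tested. Correlations between pools were 0.9981 within social threat, 0.9966 within control and 0.9894 to 0.9904 between groups, and at most 0.477% of values were identical in any 2 arrays.

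Of 45037 probe sets, 34945 had exactly 1 symbol in the platform annotation, 932 had several and 9160 stayed unnamed. All 59 Rab symbols matched RefSeq genes (GRCm38.p6). Social threat was compared with control in limma 3.58.1 (R 4.3.3) with lmFit and eBayes with a mean-variance trend (2 residual and 7.14 prior degrees of freedom). Two-sided p-values received Benjamini-Hochberg adjustment over 45037 probe sets. The p-values measure the spread between pools, not between mice. The code was tested on simulated data. Sequences came from RefSeq's promoter table. Named were all called Rab genes, all members of the granule, lysosome-related and late endosome groups, and up to 4 genes of each pathway list. The remaining Rab genes are named outside that rule, with their values seen, so that all 59 are accounted for. The members and lists were chosen with earlier results of these data known. Alternatives covered the variance prior, replicate block, omitted pools, normalization, choice of probe set and a filter on dim probe sets.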

Additional observations from a re-analysis of the deposited data

How the results depend on the processing

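Of the 20 called Rab genes, 8 kept their call and direction under all 11 alternatives fitted with every member: Rab3d, Rab23, Rab28, Rab27a, Rab44 and Rab6a, which rose, and Rab43 and Rab30, which fell. Without the variance trend 8 Rab genes were called higher and 4 lower, and 11 genes of the pathway lists lower. Leaving out each pool in turn gave 6 to 16 rises and 2 to 8 falls of Rab genes, and 4 to 14 rises and 8 to 27 falls in the pathway lists, with the lone pool assumed to vary like the other group. The median change of the family lay between 0.02 and 0.05 without single pools, at 0.01 after a further quantile normalization, at 0.04 with the mean of all probe sets of a gene and at 0.11 with the most variable probe set. That last choice turned Rab2b to 0.13 (adjusted p = 0.792), because it reads another probe set. Deviations of same-numbered pools correlated at 0.0519, and nothing in the labels pairs them. With the pool number as a replicate block, 14 Rab genes rose and 6 fell, and in the pathway lists 14 rose and 27 fell. Over the 55 genes that the naming rule covers, 574 of 656 values kept their side of the threshold and direction, 74 lost the call and 7 gained one, all 7 for Rph3a. Among the other Rab genes, calls were gained by Rab14 without control pool 1, by Rab1a, Rab5b, Rab15, Rab19 and Rab39 without control pool 2, and by Rab6b and Rab40c with the most variable probe set. The causes were not tested. Dim genes are limited by background, which these values do not separate from expression.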
